A study of Mus musculus with 38 samples.

Results

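The mouse genome carries 39 protein-coding Hox genes in the 4 clusters Hoxa, Hoxb, Hoxc and Hoxd, and all 39 were described here out of 55416 gene identifiers in the tables. Members were taken by symbol, as Hoxa, Hoxb, Hoxc or Hoxd followed by a number, without antisense or overlapping transcripts of other names. The Hoxa cluster holds 11 of them, Hoxb 10, Hoxc 9 and Hoxd 9. The number in a symbol is the paralog group, from 1 at one end of each cluster to 13 at the other, and genes of the same number in different clusters are related copies.

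Hox proteins are transcription factors with a homeodomain that give cells their position along the body axis. Genes at the low end of the numbering are switched on early and reach far forward, and genes at the high end are switched on late and stay near the tail. Adult gut keeps part of this pattern in its epithelium and its wall, and group 13 genes such as Hoxa13, Hoxb13 and Hoxd13 are known for the hindgut and its most posterior part. Pbx and Meis proteins bind DNA together with Hox proteins, and Polycomb and Trithorax proteins keep the clusters off or on.

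The study fed mice black rice or a control diet in a colorectal cancer setting and measured RNA of their intestinal tract. In the Apc set, black rice (B), control (C) and WT arms of 6 libraries were each split evenly between the title codes F and M. The AOM set had B and C arms of the same makeup, 12 libraries in all. The third set, from a table with FMT in its name, had 4 B and 4 C libraries and no code. No label gave the Apc allele, what AOM or FMT stand for, the sex behind the codes, the strain, the age, the length of feeding or the piece of gut that was taken. WT libraries carried no diet label. Columns of the Apc table were headed Colon. Libraries are named here by set, arm, code and number. Nothing in the labels said that libraries came from separate animals, so every p-value measures the spread between these libraries, which may be technical.

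Depth was 44.8 to 61.9 M reads in the Apc set, 37.9 to 55.1 M in 11 AOM libraries and 66.6 to 91.1 M in the third set. The remaining library, AOM B_F_3, stood apart from all others. It had 5.37 M reads, of which 85 fell on Hox genes, and 166015 CPM (read counts relative to library size, with TMM scaling between libraries) of Alb, the albumin of hepatocytes. It is left out of the results below unless it is named. The 6 colon markers summed to 4180 to 21800 CPM in the Apc set, 7090 to 33700 CPM in the AOM set and 14100 to 33200 CPM in the third set. The 7 stomach markers summed to at most 6.24 CPM, and the 5 markers of accessory sex glands, which also use Hoxb13, to at most 0.0764 CPM. The 12 small intestine markers summed to 117 to 956 CPM in the Apc set, 89.7 to 675 CPM in the AOM set and 111 to 553 CPM in the third set. In bulk RNA, fewer cells of a type and less RNA per cell cannot be told apart, and this holds for every level below.

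Reference sequence from before the start site is shown for 4 genes whose levels separated the libraries. In the Apc set Hoxb4 and Hoxb8 were highest in C_F_1 and C_M_3, where Hoxa13 had its lowest values and Hoxd13 stood at 0.219 and 0.197 CPM. The sequences are RefSeq promoters of build GRCm38.p6, the 250 bases before the start site, 5′ to 3′ on the strand of the gene. The tables used build GRCm39, so the coordinates belong to the RefSeq sequences only. Hoxb4 lay at chr11:96318017-96318266 and Hoxb8 at chr11:96281655-96281904, on the plus strand. Hoxa13 lay at chr6:52260881-52261130 on the minus strand and Hoxd13 at chr2:74667975-74668224 on the plus strand. A check of the strand against transcript sequence matched for Hoxb4, Hoxb8 and Hoxa13 and gave no match for Hoxd13. Capitals mark TTTAT on either strand (TTTAT or ATAAA), the core that posterior Hox proteins and Cdx proteins are known to bind; matches may overlap each other.
Hoxb4: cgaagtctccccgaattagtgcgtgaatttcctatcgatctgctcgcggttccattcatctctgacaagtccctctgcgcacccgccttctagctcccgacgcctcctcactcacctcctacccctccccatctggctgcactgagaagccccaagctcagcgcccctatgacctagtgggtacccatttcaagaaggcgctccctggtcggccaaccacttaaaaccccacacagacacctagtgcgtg
Hoxb8: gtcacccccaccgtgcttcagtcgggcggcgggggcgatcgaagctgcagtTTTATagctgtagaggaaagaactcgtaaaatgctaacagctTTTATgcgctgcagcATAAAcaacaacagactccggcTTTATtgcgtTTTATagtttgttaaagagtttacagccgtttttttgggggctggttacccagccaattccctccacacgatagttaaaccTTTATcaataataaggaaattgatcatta
Hoxa13: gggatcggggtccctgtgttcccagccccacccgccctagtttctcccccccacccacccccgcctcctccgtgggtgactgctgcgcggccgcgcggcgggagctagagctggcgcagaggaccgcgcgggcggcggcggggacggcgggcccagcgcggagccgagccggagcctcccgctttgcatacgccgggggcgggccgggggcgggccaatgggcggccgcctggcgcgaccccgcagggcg
Hoxd13: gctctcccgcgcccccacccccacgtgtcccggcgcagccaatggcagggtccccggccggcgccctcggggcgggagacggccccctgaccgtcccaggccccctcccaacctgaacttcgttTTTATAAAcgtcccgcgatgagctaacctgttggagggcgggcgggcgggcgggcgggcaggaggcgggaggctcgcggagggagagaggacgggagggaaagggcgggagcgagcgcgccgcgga
The stretch of Hoxb8 held 6 matches and that of Hoxd13 held 2, while those of Hoxb4 and Hoxa13 held 0. Of the 22 members with a promoter in the RefSeq table, 8 held the core (36.4%), against 38.1% of 27025 promoters of the same length. TAATTA, a core of many homeodomains and its own reverse complement, stood in 1 of the 22 (4.55%) and in 4.9% of all. The median number of CG pairs was 12 in the 22 members and 6 in all promoters. Hoxb13 was not among the 22. A match describes letters and no binding site.

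The summed level of the 39 genes was similar between libraries, while its makeup was not. All Hox transcripts together came to 471 to 747 CPM in the Apc set (median 578.5), 554 to 716 CPM in the AOM set (median 612) and 456 to 603 CPM in the third set (median 513.5). Within that sum, the share of reads on group 13 genes ran from 0.504% to 55.9% in the Apc set (median 37.85%), from 0.165% to 47.7% in the AOM set (median 19.0%) and from 5.88% to 26.5% in the third set (median 19.1%). Groups 5 to 9 took from 29.3% to 83.0% in the Apc set, 36.6% to 86.4% in the AOM set and 51.9% to 75.2% in the third set. Groups 1 to 4 never passed 13.6%. The low end of the group 13 share was held by Apc C_M_3 (0.504%) and C_F_1 (0.518%), AOM B_M_1 (0.165%) and B_M_2 (0.212%), and B_1 (5.88%) and C_4 (6.39%) of the third set. These 6 libraries came from control and black rice arms and, where coded, from F and M.

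**Figure D1:**
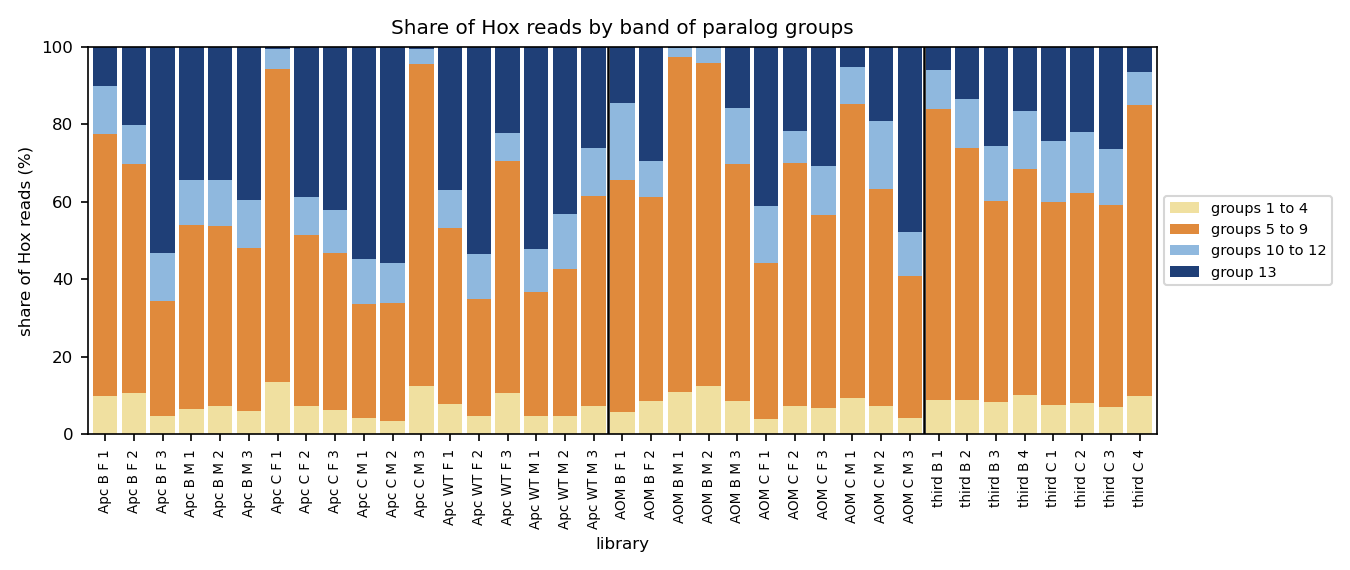
Share of Hox reads (%) in 4 bands of paralog groups, 1 stacked bar per library, with black lines between the Apc set, the AOM set and the third set. The group 13 band nearly vanishes in Apc C_F_1 and C_M_3 and in AOM B_M_1 and B_M_2, and reaches 55.9% in Apc C_M_2.

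By cluster, Hoxa and Hoxb together gave most Hox reads in each of the 37 libraries, and the share of the Hoxd cluster ran from 1.03% to 21.8%, highest in Apc B_F_3. The Hoxa cluster summed to 46.6 to 395 CPM in the Apc set and the Hoxb cluster to 176 to 543 CPM. The Hoxa sum was lowest, and the Hoxb sum highest, in Apc C_M_3 (46.6 and 543 CPM) and C_F_1 (68.7 and 441 CPM). The Hoxc cluster stayed at 0.453 to 6.81 CPM in the Apc set, at most 10.6 CPM in the AOM set and at most 5.12 CPM in the third set. The Hoxd cluster summed to 5.96 to 163 CPM in the Apc set, 7.83 to 118 CPM in the AOM set and 4.95 to 30.8 CPM in the third set. Of the 39 members, 36 had more than 10 counts in at least 1 Apc library, 36 in an AOM library and 34 in a library of the third set. Hoxb1, a gene of the hindbrain, had at most 1 count in any library. Hoxc12 had 0 counts in all 37, which allows up to 0.0485 to 0.067 CPM in an Apc library (a count of 0 allows 3 counts, for counting error only), and Hoxc13 had at most 3 counts.

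Levels of different genes are compared per length of exon, as median CPM per kilobase over the libraries of a set. In the Apc set the highest were Hoxb13 at 59.7, Hoxb9 at 29.5, Hoxa13 at 26.1 and Hoxa10 at 17.4 CPM per kilobase. AOM libraries had Hoxb9 at 27.2, Hoxa7 at 24.9, Hoxa13 at 21.4 and Hoxa10 at 17.2. Hoxa13 led in the third set at 33.4, ahead of Hoxb9 at 23.4 and Hoxa7 at 17.6, and Hoxb13 stood at 3.0. The lengths came from gene models of another build than the counts. Counting used no strand setting in the 2 tables whose header gave the command, so reads of overlapping antisense genes cannot be told apart. In those models 52.9% of the exon bases of Hoxb3, 62.8% of Hoxd3, 52.3% of Hoxd4 and 35% of Hoxa11 were shared with other genes, and their values are uncertain.

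Hoxb13, the last gene of the Hoxb cluster, differed widely between libraries of each set. In Apc black rice libraries it stood at 10.2, 52.9 and 207 CPM (F) and 115, 121 and 116 CPM (M). Apc control libraries had 0.438, 174 and 160 CPM (F) and 243, 286 and 0.728 CPM (M). Apc WT libraries had 151, 248 and 88.7 CPM (F) and 237, 142 and 76.1 CPM (M). Control C_F_1 and C_M_3 were thus far below all others, with 24 counts in C_F_1, and the arms overlapped. AOM libraries had Hoxb13 at 34.5 and 109 CPM (B, F), 0.0502, 0.0622 and 25.9 CPM (B, M), 179, 101 and 126 CPM (C, F) and 13.01, 37.7 and 191 CPM (C, M). The lowest AOM library had 2 counts, below what a count of 0 allows. The third set had 0.237, 2.44, 13.4 and 4.01 CPM in black rice and 9.23, 13.7, 23.7 and 0.5 CPM in control libraries, all under the Apc median of 132 CPM.

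Hoxa13, the group 13 gene of the Hoxa cluster, was high in most libraries and low in the same few. In the Apc set it lay at 16.4 to 81.4 CPM in 16 libraries and at 2.19 CPM in C_F_1 and 2.24 CPM in C_M_3. AOM B_M_1 and B_M_2 had 1.0 and 1.34 CPM, and the other 9 had 16.6 to 69.8 CPM. In the third set Hoxa13 stood at 30.2, 68.6, 113 and 79.8 CPM in black rice and 103, 85.6, 112 and 38 CPM in control libraries. Its median was 64.6 CPM in the Apc, 52.9 CPM in the AOM and 82.7 CPM in the third set.

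Hoxd13, the group 13 gene of the Hoxd cluster, parted from Hoxa13 or Hoxb13 in some Apc libraries. It reached 124 CPM in Apc B_F_3, 79.7 CPM in C_M_1 and 36.7 CPM in WT_F_2, with B_F_2 between C_M_1 and WT_F_2. It was at 0.149 CPM in B_F_1, 0.219 CPM in C_F_1 and 0.197 CPM in C_M_3, and between 2.31 and 20.3 CPM in the other 11 Apc libraries. B_F_1 was therefore low in Hoxd13 while Hoxa13 stood at 48.0 CPM. Among AOM libraries Hoxd13 was highest in C_M_3 at 91.4 CPM and B_F_2 at 38.9 CPM, and B_M_1 and B_M_2 had 0.0502 and 0.0622 CPM. The third set had it at 0.0857 to 0.402 CPM in all 8 libraries, from 6 to 28 counts.

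**Figure D2:**
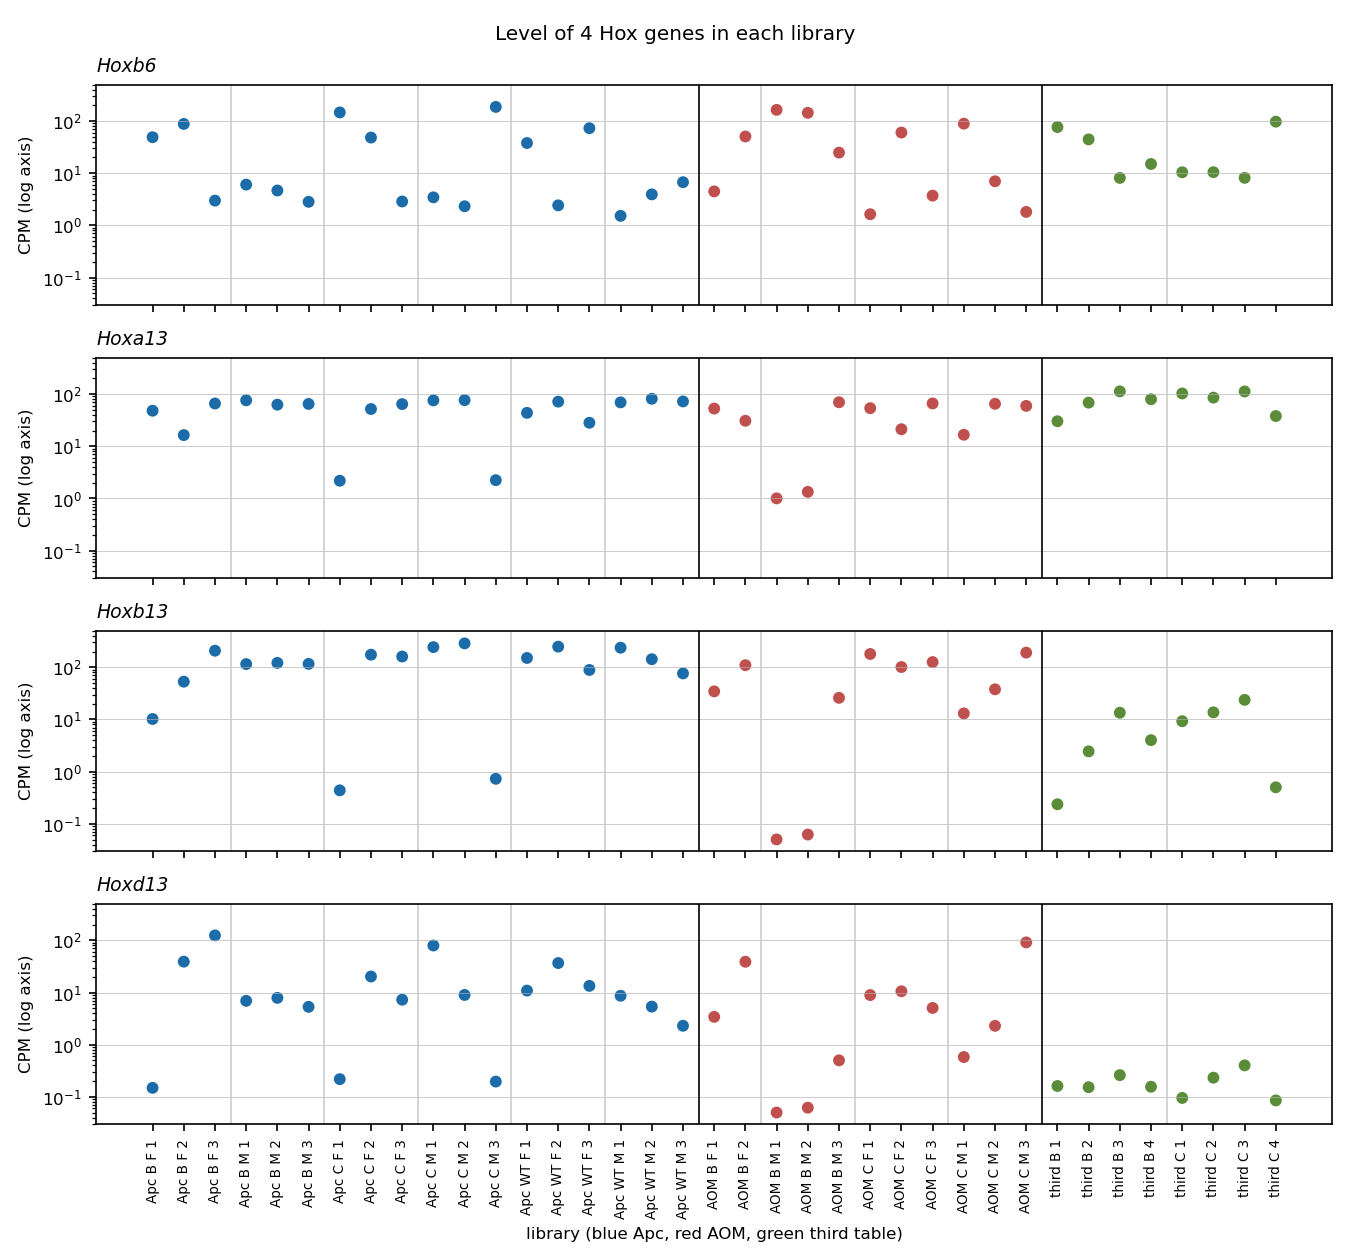
CPM of Hoxb6, Hoxa13, Hoxb13 and Hoxd13 (log axes) in each of 37 libraries, 1 point per library, with lines between groups. Hoxb6 is highest in Apc C_M_3 and C_F_1 and AOM B_M_1 and B_M_2, the libraries of these sets with the least Hoxb13, and Hoxd13 stays at or below 0.402 CPM in the third set.

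The middle of the Hoxb cluster was highest where Hoxa13 and Hoxb13 were lowest: this held for Hoxb3 to Hoxb8 in Apc C_F_1 and C_M_3 and for Hoxb4 to Hoxb8 in AOM B_M_1 and B_M_2. Hoxb6 fell into high and low libraries with nothing between: 7 Apc libraries had 37.8 to 186 CPM and 11 had 1.52 to 6.72 CPM. The 7 were B_F_1 (48.9), B_F_2 (87.7), C_F_1 (146), C_F_2 (48.1), C_M_3 (186), WT_F_1 (37.8) and WT_F_3 (72.7). With a line at 25 CPM, set after the values were seen, these were 2 of 6 black rice, 3 of 6 control and 2 of 6 WT libraries, or 6 of 9 F and 1 of 9 M libraries. Of 11 AOM libraries 5 were above the line (50.5, 163, 143, 60.0 and 88.8 CPM), 2 of 5 coded F and 3 of 6 coded M. AOM B_M_3 lay just below it at 24.8 CPM. Of the third set B_1 (76.4), B_2 (44.4) and C_4 (97.0) were above it and the other 5 had 8.1 to 15.0 CPM. High Hoxb6 did not always go with low Hoxb13: Apc C_F_2 had Hoxb13 at 174 CPM and WT_F_1 at 151 CPM, and AOM B_F_2 and C_F_2 had it at 109 and 101 CPM.

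Hoxb4, Hoxb5, Hoxb7 and Hoxb8 had their 2 highest Apc values in the same 2 libraries as Hoxb6, C_F_1 and C_M_3. Hoxb8 stood there at 40.9 and 56.4 CPM against a median of 1.11 CPM over the set. Hoxb4 stood at 35.7 and 40.8 CPM against a median of 3.4 CPM. Hoxb9 moved in the same direction but little, from 52.8 to 148 CPM over the Apc set, a 2.81-fold range against 122-fold for Hoxb6, 654-fold for Hoxb13 and 834-fold for Hoxd13.

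Paralog number alone did not set which way a gene moved, since Hoxa and Hoxb genes of the same number parted. In Apc C_F_1 and C_M_3, 9 members had their 2 highest values of the set: Hoxb3 to Hoxb9, Hoxc11 and Hoxd4. In the same 2 libraries 8 members had their 2 lowest values: Hoxa2, Hoxa3, Hoxa5, Hoxa6, Hoxa9, Hoxa10, Hoxa13 and Hoxb13. Hoxa9 was at 6.14 CPM in C_M_3, its lowest, and at 107 CPM in WT_M_3, its highest, where Hoxb9 was at 148 and 77.3 CPM. Hoxa6 was at 0.413 CPM in C_M_3 against a median of 6.49 CPM, while Hoxb6 was at 186 against 5.35 CPM. The AOM set had the same parting in B_M_1, with Hoxa9 at 6.78 CPM against a median of 82.3 and Hoxb6 at 163 against 24.8 CPM. Genes near the front of the Hoxa cluster varied little: Hoxa2 ranged 2.8-fold and Hoxa3 2.56-fold over the Apc set.

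**Figure D3:**
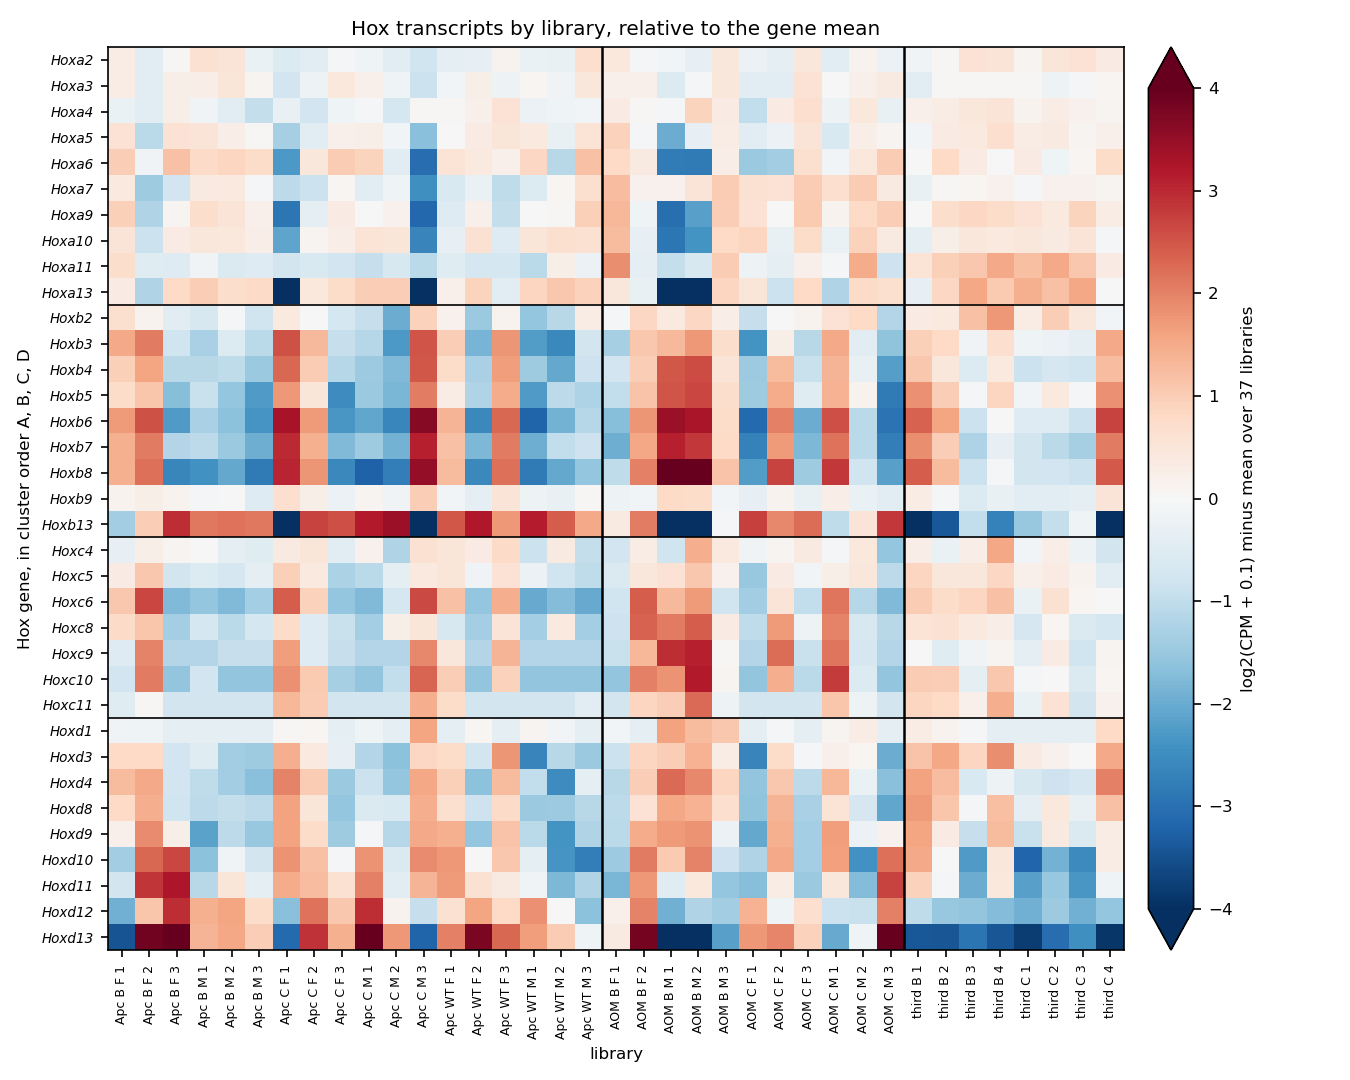
Level of members with more than 10 counts in a library, as log2(CPM + 0.1) minus the mean of the gene over 37 libraries (colour, clipped at 4 on either side), genes in cluster order and libraries by set. Hoxb3 to Hoxb8 are red where Hoxa6, Hoxa9, Hoxa10, Hoxa13 and Hoxb13 are blue, as in Apc C_F_1 and C_M_3 and AOM B_M_1 and B_M_2.

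Hoxd10 and Hoxd11 lie next to Hoxd12 and Hoxd13 in the cluster, and Hoxd10 was high in some libraries at both ends of this range. It was not high throughout: Apc C_M_2, with a group 13 share of 55.9%, had Hoxd10 at 1.84 CPM. Hoxd10 was highest in Apc B_F_3 at 18.3 CPM and B_F_2 at 14.1 CPM, followed by C_M_3 at 10.8 CPM and by C_F_1 and C_M_1 at 10.1 CPM each. Its lowest Apc values were 0.33 CPM in WT_M_3, 0.469 CPM in WT_M_2 and 0.841 CPM in B_M_1, which had Hoxb6 at 3.92 to 6.72 CPM and Hoxb13 at 76.1 to 142 CPM. Hoxd11 had its highest value in B_F_3 too, at 12.9 CPM, and its lowest in WT_M_2, at 0.299 CPM. Over the third set Hoxd10 was highest in B_1 at 8.21 CPM and lowest in C_1 at 0.227 CPM. Hoxc6, Hoxc9 and Hoxc10 were near 0 in most Apc libraries, with highest values of 2.5, 0.786 and 1.4 CPM.

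Libraries of the same group differed more in several Hox genes than in nearly all other genes. The SD of log2 CPM between libraries of a group was 2.99 for Hoxb13 in the Apc set (99.9th percentile of 21624 genes tested), 2.73 in the AOM set (99.8th of 21895) and 2.43 in the third set (100th of 20831). It was 3.05 for Hoxd13, 2.52 for Hoxb8 and 2.43 for Hoxb6 in the Apc set, at the 99.9th, 99.7th and 99.7th percentiles, where the median of all genes was 0.38. Hoxb9 (0.373, 49.1st percentile) varied as an average gene did. These ranks describe the libraries and come with no test.

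Across libraries, Hoxb13 was set against 7 partners in each set, which gave 20 relations with enough libraries in 1 cluster of values. Where values of a gene fell into separate clusters, each cluster of 6 or more libraries was taken alone. Between Hoxb13 and Hoxa13, Pearson's r of log2 CPM was 0.919 in the Apc set (18 libraries, permutation p = 0.00045, adjusted p = 0.003) and Spearman's rho was 0.626 (p = 0.00641, adjusted p = 0.029). Without the 2 libraries farthest from the median of Hoxb13, r was 0.456 (permutation p = 0.0811), so the relation rests on C_F_1 and C_M_3. The same held in the AOM set, where r was 0.93 (11 libraries, permutation p = 0.00436, adjusted p = 0.0125), rho 0.564 (p = 0.0756, adjusted p = 0.151) and r 0.271 without the 2 farthest libraries. With group means removed neither kept its call (r = 0.925, adjusted p = 0.0878, and 0.916, adjusted p = 0.112, by permutation within groups). Values were shuffled there only among the few libraries of a group. This limits how small p can be where few libraries carry a relation, so these lost calls do not show a weaker relation. In the third set r was 0.974 (8 libraries, exact permutation p = 0.000397, adjusted p = 0.003), rho 0.881 (exact p = 0.00724, adjusted p = 0.029) and r 0.865 without the 2 farthest.

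Hoxb13 and Hoxd13 were high in the same AOM libraries (r = 0.876, permutation p = 3e-05, adjusted p = 0.0006; rho = 0.909, permutation p = 0.00027, adjusted p = 0.0054; r = 0.859 without the 2 farthest libraries). In the 15 Apc libraries of the upper Hoxd13 cluster r was 0.313 (permutation p = 0.258, adjusted p = 0.368) and rho 0.407 (permutation p = 0.134, adjusted p = 0.185). Between Hoxb13 and Hoxb6 r was -0.791 in the 11 Apc libraries of the low Hoxb6 cluster (permutation p = 0.00355, adjusted p = 0.0118; rho = -0.745, permutation p = 0.0112, adjusted p = 0.0372; r = -0.669 without the 2 farthest). Hoxb13 was thus higher where Hoxb6 was lower even among the libraries with little Hoxb6. In the 7 Apc libraries with high Hoxb6, r was -0.831 (exact permutation p = 0.0246, adjusted p = 0.0547; rho = -0.821, exact permutation p = 0.0341, adjusted p = 0.0853) and -0.153 without the 2 farthest, so that value rests on C_F_1 and C_M_3. In the AOM set r was -0.71 (permutation p = 0.00567, adjusted p = 0.0142; rho = -0.845, permutation p = 0.00162, adjusted p = 0.0114) and -0.536 without the 2 farthest. With Hoxb4, Hoxb13 had r = -0.781 in the AOM set (permutation p = 0.00174, adjusted p = 0.00696; rho = -0.845, permutation p = 0.00171, adjusted p = 0.0114) and -0.554 without the 2 farthest. With group means removed both AOM calls were lost (Hoxb6 -0.509, permutation adjusted p = 0.0903; Hoxb4 -0.623, 0.0878), and with AOM B_F_3 included r was -0.311 and -0.651, again without passing.

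Markers of tissue makeup were among the partners. With Myh11, the heavy myosin of smooth muscle, r was -0.078 in the Apc set (permutation p = 0.743, adjusted p = 0.743; rho = -0.315, permutation p = 0.201, adjusted p = 0.252) and 0.205 in the AOM set (permutation p = 0.57, adjusted p = 0.6; rho = -0.236, permutation p = 0.487, adjusted p = 0.573). Without the 2 farthest libraries these became -0.587 (permutation p = 0.0211) and -0.681 (permutation p = 0.0471). In the third set r had the other sign, 0.695 (exact permutation p = 0.0465, adjusted p = 0.0846; rho = 0.69, exact permutation p = 0.0694, adjusted p = 0.151), and was 0.464 without the 2 farthest. With Epcam, an epithelial surface protein, r was -0.229 in the Apc set (permutation p = 0.361, adjusted p = 0.44; rho = -0.053, permutation p = 0.836, adjusted p = 0.88) and -0.788 in the AOM set (permutation p = 0.0013, adjusted p = 0.0065; rho = -0.709, permutation p = 0.0179, adjusted p = 0.0511; r = -0.624 without the 2 farthest). That AOM call was lost with group means removed (-0.599, permutation adjusted p = 0.253), and its sign turned with AOM B_F_3 included (0.112). Epcam had r = -0.347 in the third set (exact permutation p = 0.399, adjusted p = 0.443; rho = -0.119, exact permutation p = 0.793, adjusted p = 0.88). Their part in the Hox pattern was not tested. The planned partner Prac1, a neighbour of Hoxb13, had no identifier in the name tables and is not analysed here.

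Genes of regional gut epithelium were set beside the Hox genes, in pairs chosen after the values were seen. Atp12a, the proton pump of distal colon, ran with Hoxb13: in Apc C_F_1 and C_M_3 it stood at 2.5 and 1.55 CPM and in the other 16 Apc libraries at 20.5 to 1027 CPM. Their r was 0.935 in the Apc set (permutation p = 1e-05, the smallest that 100000 resamples give, adjusted p = 9e-05; rho = 0.827, permutation p = 2e-05, adjusted p = 0.00018), 0.944 in the AOM set (permutation p = 7e-05, adjusted p = 0.00021; rho = 0.918, permutation p = 0.00027, adjusted p = 0.00081) and 0.835 in the third set (exact permutation p = 0.00789, adjusted p = 0.0142; rho = 0.905, exact permutation p = 0.00456, adjusted p = 0.00821). Without the 2 farthest libraries r was 0.783, 0.847 and 0.842, so this relation did not rest on them. The p-values of these pairs, here and in the next paragraph, were adjusted over their 9 relations only. They do not account for the genes the pairs were picked from, so they are descriptions and no test. Relations with group means removed, or with AOM B_F_3 included, were not computed for these pairs.

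Cyp2c55, a cytochrome of proximal colon and caecum, ran with Hoxb6. In the AOM set r was 0.952 (permutation p = 2e-05, adjusted p = 9e-05; rho = 0.945, permutation p = 4e-05, adjusted p = 0.00018; r = 0.955 without the 2 farthest). The Apc libraries formed separate Hoxb6 clusters, within which r was 0.569 (11 libraries, permutation p = 0.0666, adjusted p = 0.0856; rho = 0.745, permutation p = 0.0108, adjusted p = 0.0163) and 0.703 (7 libraries, exact permutation p = 0.081, adjusted p = 0.0911; rho = 0.857, exact permutation p = 0.0238, adjusted p = 0.0306). Cyp2c55 was at 1577 and 2026 CPM in Apc C_F_1 and C_M_3 and at 44.1 CPM in B_M_3. Slc10a2 and Fabp6, the bile acid carriers of ileum, were at 131 and 276 CPM in C_F_1, 174 and 215 CPM in C_M_3 and 1.03 and 1.81 CPM in B_M_3. B_M_3 serves as an example only, and levels of these genes in the other Apc libraries are not listed here. The values therefore do not show that high levels were particular to C_F_1 and C_M_3. Relations of Hoxd13 and Scnn1g in the AOM set (r = 0.568, adjusted p = 0.0856 by permutation) and the third set (r = -0.467, adjusted p = 0.245, exact permutation) did not pass. Scnn1g, a subunit of the sodium channel of distal colon, had r = 0.66 with Hoxd13 in the upper Hoxd13 cluster of the Apc set (15 libraries, permutation p = 0.00724, adjusted p = 0.0142; rho = 0.704, permutation p = 0.00438, adjusted p = 0.00821), and 0.505 without the 2 farthest (permutation p = 0.0771).

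**Figure D4:**
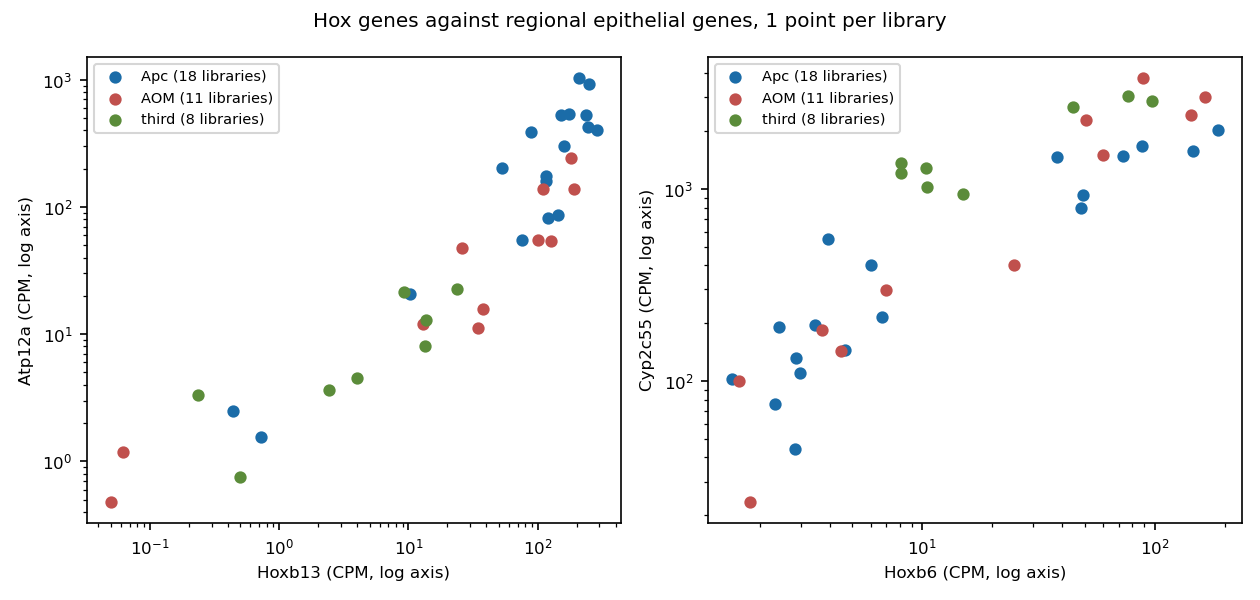
Hoxb13 against Atp12a (left) and Hoxb6 against Cyp2c55 (right), CPM on log axes, 1 point per library, coloured by set. Atp12a lies between 0.477 and 1027 CPM and rises with Hoxb13, and within each set Cyp2c55 is higher in every library where Hoxb6 passes 25 CPM than in the rest.

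The genes most like Hoxb13 over the 18 Apc libraries, by r of log2 CPM with group means removed among 12918 genes that are no Hox genes, were Esrrg (r = 0.987), B3gnt7 (0.983), Thbs4 (0.981), Nxpe4 (0.980) and Sval1 (0.980). Over the AOM libraries the same genes had r of 0.45, 0.897, 0.86, 0.907 and 0.905 with Hoxb13, and in the third set 0.873, 0.937, 0.998, 0.97 and 0.95. Thbs4, a thrombospondin of the matrix, stood at 13.4 and 23.7 CPM in Apc C_F_1 and C_M_3 and at 112.4 to 566.5 CPM in the other 16. They were picked as the highest of many and carry no p.

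The diet arms of the Apc set were compared as the mean of the F and the M difference, black rice minus control, with edgeR's quasi-likelihood test and Benjamini-Hochberg adjustment over all genes. Of 35 members tested, 0 passed an adjusted p of 0.05, where 0.0139% of 21624 genes passed (0.00462% higher and 0.00925% lower). An unadjusted p under 0.05 was reached by 4 members, and by 10.3% of all genes, a similar share. The 3 with the smallest p were Hoxa2, Hoxa11 and Hoxc11, and none passed. Hoxa2, a group 2 gene, lay at 5.02 to 10.5 CPM in 6 black rice libraries (median 7.82) and at 3.94 to 6.64 CPM in 6 control libraries (median 5.12), and the groups overlapped. Its log2 difference was 0.56 ± 0.22 (SE, edgeR adjusted p = 0.408). Hoxa11 lay at 3.21 to 8.07 CPM in black rice (median 3.44) and 2.24 to 3.15 CPM in control libraries (median 2.88), without overlap, a log2 difference of 0.62 ± 0.25 (edgeR adjusted p = 0.423). Hoxc11 had at most 18 counts in a library, with a log2 difference of -4.07 ± 1.62 (edgeR adjusted p = 0.428).

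The median log2 difference of the members was -0.33 in this comparison, with 13 above and 22 below 0, beside -0.006 over all genes. Apc C_F_1 and C_M_3, both in the control arm, were picked after the data were seen, for the lowest group 13 levels. They were also highest in Hoxb3 to Hoxb9. Leaving them out therefore raises the differences of these genes, and lowers that of Hoxb13, by construction. With both left out, the median of 34 members was 0.27, with 25 above and 9 below 0, and still 0 passed. Hoxb6 went from -2.14 ± 1.11 to 0.76 ± 0.92 and Hoxb8 from -2.57 ± 1.16 to 0.58 ± 0.95 on the log2 scale (SE). Hoxb13 stood at 103.7 CPM on average in black rice and 144 CPM in control libraries, a log2 difference of -0.46 ± 1.02 (edgeR adjusted p = 0.901). Without C_F_1 and C_M_3 the difference of Hoxb13 lay farther below 0, at -1.04 ± 0.55 (edgeR adjusted p = 0.472).

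Against WT, 0 of 35 members passed for the control arm, where 0% of genes passed, and 0 of 35 for the black rice arm, where 0.0139% passed (0.00462% higher and 0.00925% lower). These comparisons share the WT libraries with each other, and the first shares the control libraries with the diet comparison. For control minus WT, 4 members had an unadjusted p under 0.05, namely Hoxc6, Hoxd10, Hoxc10 and Hoxb6, each with an adjusted p of 0.999, where 4.25% of all genes had such a p. Hoxd10 lay at 1.84 to 10.8 CPM in control libraries (median 8.23) and at 0.33 to 9.69 CPM in WT libraries (median 2.48), overlapping, with a log2 difference of 1.48 ± 0.65. Hoxc6 had medians of 0.411 and 0.0303 CPM in control and WT libraries, with a log2 difference of 3.55 ± 1.39, and Hoxc10 had 4.15 ± 1.91. Hoxb6 went from 2.38 ± 1.12 to -0.52 ± 0.92 without C_F_1 and C_M_3. For black rice minus WT, 0 members had an unadjusted p under 0.05, against 8.17% of all genes, and the smallest p belonged to Hoxd11 (log2 difference 1.16 ± 0.59, edgeR adjusted p = 0.626), Hoxa4 (-0.38 ± 0.22, 0.644) and Hoxd10 (0.81 ± 0.65, 0.709).

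Between Apc libraries coded F and M 0 of 35 members passed by edgeR, where 0.074% of 21624 genes passed (0.0139% higher and 0.0601% lower in F). At an unadjusted p under 0.05 stood 15.1% of all genes in either direction and 6.72% as higher in F, and 15 of the members, all higher in F: Hoxb3, Hoxb4, Hoxb6, Hoxb7, Hoxb8, Hoxc5, Hoxc6, Hoxc9, Hoxc10, Hoxd3, Hoxd4, Hoxd8, Hoxd9, Hoxd10 and Hoxd11. The median log2 difference was 1.08 over the members, with 26 above and 9 below 0, and 0.008 over all genes. Members that move together in the same libraries are not independent. Neither count of members can be read as separate pieces of evidence, here or in the other comparisons. Hoxd3 lay at 0.27 to 2.02 CPM in 9 F libraries (median 0.952) and 0 to 1.0 CPM in 9 M libraries (median 0.139), and the groups overlapped. Its log2 difference was 2.08 ± 0.57 (edgeR adjusted p = 0.152). Hoxd9 lay at 0.531 to 6.71 CPM in F (median 3.02) and 0.256 to 5.22 CPM in M (median 0.747), with 1.78 ± 0.52 (edgeR adjusted p = 0.164). Hoxc6 had medians of 0.746 and 0.0213 CPM, with 3.61 ± 1.10 (edgeR adjusted p = 0.176).

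DESeq2, run as an alternative, called 4 of 32 members higher in F, where it called 1.16% of 20357 genes higher and 2.59% in either direction: Hoxd3 (log2 difference 2.09, adjusted p = 0.0126), Hoxd9 (1.79, adjusted p = 0.0145), Hoxc6 (3.74, adjusted p = 0.0244) and Hoxd11 (1.57, adjusted p = 0.0255). The Hoxa cluster did not share the direction: Hoxa13 was at 48.0 CPM in F and 72.4 CPM in M by median, with a log2 difference of -0.56 ± 0.56 (edgeR adjusted p = 0.637). Hoxb6, with 0.284 as its edgeR adjusted p, had a log2 difference of 2.19 ± 0.91 and of 3.23 ± 0.78 (adjusted p = 0.103) without C_F_1 and C_M_3. Of 10 tested markers of small intestine, 8 had a log2 difference above 0 and 2 below (median 0.81), and 0 were called. Fabp6, Slc10a2 and Sis had log2 differences of 3.17 ± 0.88, 2.92 ± 0.86 and 2.88 ± 1 in the same contrast (edgeR adjusted p = 0.152, 0.170 and 0.216). The 12 small intestine markers summed to 127 to 956 CPM in F (median 416) and 117 to 731 CPM in M libraries (median 214). The 3 tested markers of distal colon also lay above 0 (median 0.55, 0 called), and summed to 7.48 to 1060 CPM in F (median 397) and 8.23 to 553 CPM in M (median 162). All 4 adipocyte markers (median 2.08) and all 10 of enteric nerve and glia (median 0.42) lay above 0 as well, all 9 of epithelium below (median -0.26), and 0 of these were called. The part of these tissues in the Hox difference was not tested.

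**Figure D5:**
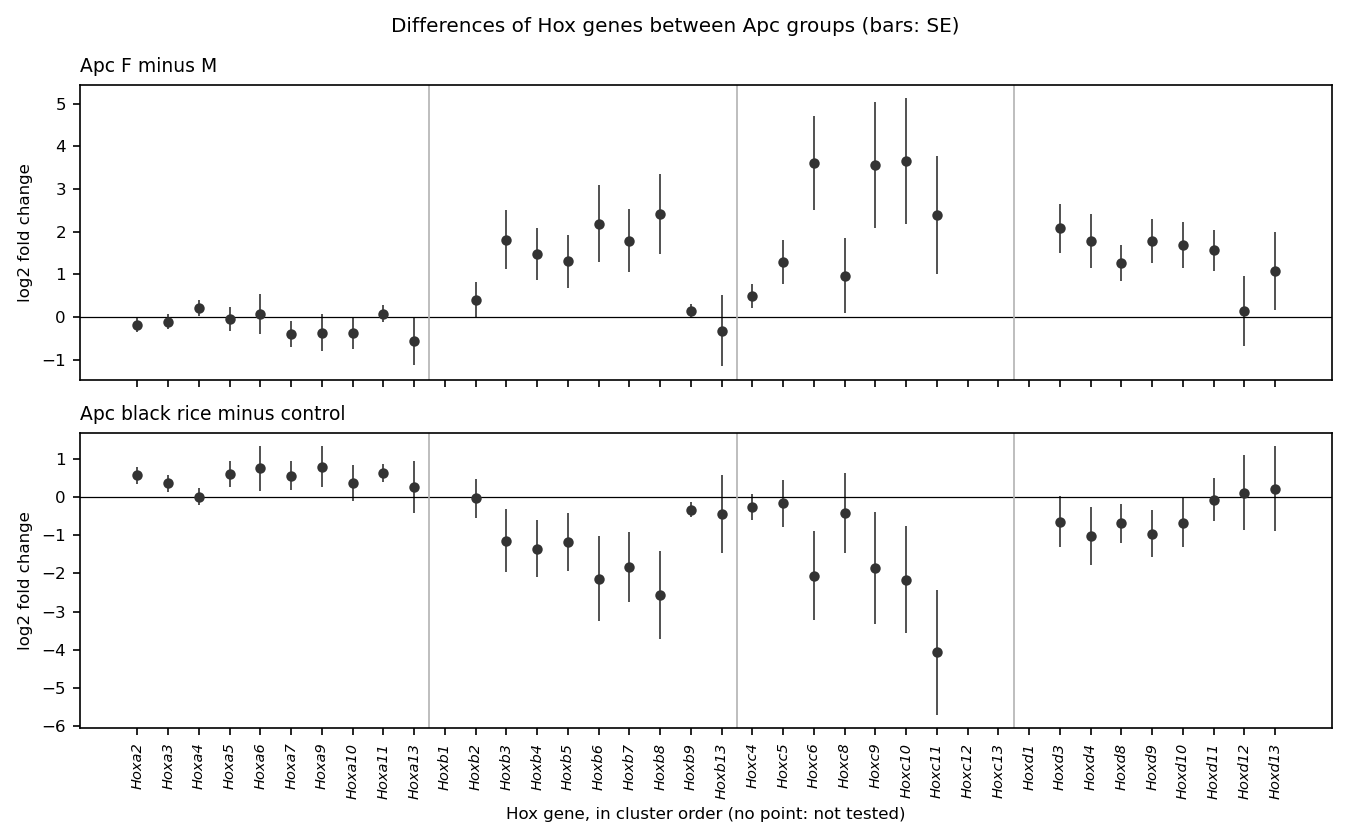
Log2 fold change with SE of tested members between Apc libraries coded F and M (top) and between black rice and control (bottom), genes in cluster order. In the top panel Hoxb3 to Hoxb8 and Hoxd3 to Hoxd11 lie above 0 while most Hoxa genes lie near 0; in the bottom panel Hoxb3 to Hoxb8 lie below 0, and each of these 6 lay above 0 without Apc C_F_1 and C_M_3.

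The difference of the diet effect between F and M was tested as an interaction in the Apc set, and 0 of 35 members passed, where 0% of genes passed. Among the smallest p were those of Hoxd11 (log2 2.93 ± 1.16, edgeR adjusted p = 0.505) and Hoxd10 (2.95 ± 1.29, 0.530).

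Among AOM libraries 0 of 34 members passed for black rice minus control, where 0% of 21895 genes passed, and 1 had an unadjusted p under 0.05, as did 3.06% of all genes. That was Hoxd13, at 3.42 and 38.9 CPM (F) and 0.0502, 0.0622 and 0.502 CPM (M) in black rice, and 8.95, 10.6 and 5.07 CPM (F) and 0.581, 2.3 and 91.4 CPM (M) in control libraries. The groups overlapped, and the log2 difference was -2.90 ± 1.25 (edgeR adjusted p = 1). Hoxd12 had a log2 difference of -1.60 ± 0.88 (edgeR adjusted p = 1). Hoxb13 averaged 40.3 CPM in black rice and 108 CPM in control libraries, with a log2 difference of -2.05 ± 1.22. The median log2 difference of the members was 0.45, with 26 above and 8 below 0, beside -0.021 over all genes. The black rice arm holds B_M_1 and B_M_2, with the smallest group 13 shares of the set (0.165% and 0.212%). A fit without both was not run. Across fits without 1 library, Hoxd13 ran from -4.205 to -0.667 and Hoxd12 from -2.266 to -0.42 in this comparison.

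For F minus M in the AOM set 0 of 34 passed, where 0.0365% of genes passed (0.00457% higher and 0.032% lower in F), and Hoxd12 had the smallest p (2.26 ± 0.86, edgeR adjusted p = 0.583), ahead of Hoxd13 (2.33 ± 1.16, 0.618) and Hoxb9 (-0.34 ± 0.20, 0.679). The members' median was -0.27 there, against 1.08 in the Apc set. Whether this difference itself differed between the sets was not tested. For the interaction of diet and code 0 of 34 passed, where 0% of genes passed. Hoxd13 had the smallest p, with a log2 interaction of 8.56 ± 2.44 (edgeR adjusted p = 0.314), with as few as 2 counts in a library. Hoxd12 (4.58 ± 1.72, 0.320) and Hoxd11 (3.53 ± 1.79, 0.395) followed.

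In the third set 0 of 33 members passed for black rice minus control, where 0% of 20831 genes passed, and 6 had an unadjusted p under 0.05, as did 7.94% of all genes. The 3 smallest p belonged to Hoxc genes of low level. Hoxc8 stood at 0.274, 0.292, 0.235 and 0.209 CPM in black rice and 0.0597, 0.172, 0.0719 and 0.0571 CPM in control libraries, without overlap, a log2 difference of 1.47 ± 0.38 (edgeR adjusted p = 0.510). Hoxc6 stood at 0.71, 0.568, 0.627 and 0.81 CPM against 0.239, 0.517, 0.331 and 0.3 CPM, again without overlap, a difference of 0.99 ± 0.27 (edgeR adjusted p = 0.510). Hoxc10 stood at 0.498, 0.491, 0.131 and 0.522 CPM against 0.179, 0.197, 0.101 and 0.214 CPM, with overlap, a difference of 1.26 ± 0.43 (edgeR adjusted p = 0.557).

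Control libraries were also compared between the sets in 1 fit of 37 libraries, and here the set and the table it was counted in cannot be told apart. AOM control against Apc control had 2 of 36 members higher and 0 lower, where 17.1% of 24028 genes passed as higher, 15% as lower and 32.2% in either direction. The share of members called was thus below the share of all genes. Hoxa7, a group 7 gene, stood at 71.5, 70.0, 94.8, 75.0, 94.6 and 60.3 CPM in AOM control and 50.3, 25.7, 22.9, 34.3, 41.5 and 8.56 CPM in Apc control libraries, without overlap. It was higher by 1.35 ± 0.31 on the log2 scale (edgeR adjusted p = 0.00136). In the gene models 20.4% of the exon bases of Hoxa7 were shared with Hoxaas3, and the strand setting of the Apc table is not known. Hoxa11 was higher by 1.03 ± 0.38 (edgeR adjusted p = 0.0377), at 2.7 to 13.9 CPM against 2.24 to 3.15 CPM, overlapping, and lost the call in 7 of 12 leave-one-out fits, most of all without AOM C_M_2 (0.56, edgeR adjusted p = 0.257). With smooth muscle markers as a covariate it was 0.24 (0.599). Tissue markers differed in this comparison too. Of 6 tested markers of anal squamous epithelium 5 were called higher in AOM control (median log2 difference 4.1); they summed to 13.2 to 21.8 CPM there and to 3.92 to 5.8 CPM in Apc control. Higher were also 5 of 10 smooth muscle markers, with sums of 4180 to 14000 CPM against 2610 to 3840 CPM, and 4 of 12 small intestine markers, with sums of 89.7 to 675 CPM against 127 to 731 CPM. Lower were 2 of 6 markers each of B and plasma cells, T cells and macrophages, 2 of 4 of endothelium and 3 of 6 of hepatocytes. Apart from the smooth muscle covariate, the part of these tissues in the Hox calls was not tested.

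Control libraries of the third set against Apc control had 2 members higher and 4 lower of 36, where 15.3% of 24028 genes passed as higher, 15.6% as lower and 30.9% in either direction. The share of members called was thus below the share of all genes in each direction. This comparison shares the Apc control libraries with the one above. The lower members were Hoxd10 to Hoxd13, the 4 genes at the 5′ end of the Hoxd cluster, which as neighbours may not be independent. Hoxd13 stood at 0.0956, 0.234, 0.402 and 0.0857 CPM in control libraries of the third set and 0.219, 20.3, 7.29, 79.7, 8.99 and 0.197 CPM in Apc control libraries. The groups overlapped through Apc C_F_1 and C_M_3, and the log2 difference was -6.39 ± 1.61 (edgeR adjusted p = 0.00376). Hoxd12 was lower by a log2 difference of -5.66 ± 1.42 (edgeR adjusted p = 0.00364), with 0 to 0.0369 CPM in control libraries of the third set, Hoxd11 by -2.80 ± 0.90 (0.0193) and Hoxd10 by -2.61 ± 1.01 (0.0488). Hoxb13 was at 11.8 against 144 CPM on average and did not pass (-3.64 ± 1.44, edgeR adjusted p = 0.0537). It passed by DESeq2 (-3.63, adjusted p = 0.0113). It also passed without Apc C_F_1 and C_M_3 (-4.18 ± 1.24, edgeR adjusted p = 0.0121). These were left out for their low group 13 levels, Hoxb13 among them, so that fit is no separate support for its call. The call of Hoxd10 was lost in 8 of 10 leave-one-out fits, and that of Hoxd11 in 3 of 10, those without C_1, C_2 or C_3 of the third set.

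The higher ones were Hoxa11 and Hoxa2. Hoxa11 stood at 11.4, 14.1, 10.5 and 6.13 CPM in control libraries of the third set and at 2.24 to 3.15 CPM in Apc control libraries, without overlap, with 1.86 ± 0.41 (edgeR adjusted p = 0.00138). Hoxa2 stood at 7.45, 9.66, 10.5 and 8.69 CPM against 3.94 to 6.64 CPM, also without overlap, with 0.72 ± 0.23 (edgeR adjusted p = 0.0195). This call was lost without C_2 of the third set (0.69, edgeR adjusted p = 0.0525), and without both Apc C_F_1 and C_M_3 (0.64, 0.0609). In the gene models 15% of the exon bases of Hoxa2 were shared with Gm28308. Smooth muscle moved with this comparison: all 10 of its markers were called higher, with a median log2 difference of 2.01, and their sum was 3220 to 29900 CPM in control libraries of the third set and 2610 to 3840 CPM in Apc control libraries. With the mean of these markers as a covariate 0 members and 2402 of 24028 genes passed, Hoxa11 going to 0.52 (edgeR adjusted p = 0.363) and Hoxd13 to -5.802 (0.115). Scnn1g and Atp12a, markers of distal colon, were lower by log2 differences of -5.94 ± 1.38 (edgeR adjusted p = 0.00204) and -4.33 ± 1.46 (0.0255). Other cell types moved as well. Called higher were 6 of 9 markers of epithelium, with sums of 17100 to 19100 CPM against 7810 to 13400 CPM in Apc control. Called lower were all 6 of B and plasma cells (61.3 to 224 against 538 to 1550 CPM), all 6 of macrophages (medians of their sums 126 against 283 CPM) and 4 of 6 of T cells. Also lower were all 4 of endothelium (31.6 to 42.6 against 113 to 150 CPM), all 6 of hepatocytes (2.71 to 5.91 against 23.1 to 124 CPM) and 4 of 5 of red blood cells (6.41 to 15.6 against 6.46 to 139 CPM). The part of these cell types in the Hox calls was not tested.

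The partners and regulators of Hox genes were counted in the same fits. Of 9 cofactors of the Pbx, Meis and Pknox families, 10 ParaHox and regional homeobox genes, 19 Polycomb and Trithorax genes and 12 genes of retinoic acid, which sets Hox boundaries in the embryo, 0 were called in any of the 9 comparisons within a set. Between the sets the counts are read against the shares of all genes, 17.1% higher and 15% lower in AOM control and 15.3% higher and 15.6% lower in control libraries of the third set. Of the cofactors 2 of 9 were higher in AOM control than in Apc control, close to that share, Meis2 (0.83 ± 0.26, edgeR adjusted p = 0.0152) and Pbx2 (0.31 ± 0.10, 0.0169). In control libraries of the third set 4 of 9 were higher, led by Pbx2 (0.40 ± 0.11, edgeR adjusted p = 0.00647), Meis2 (0.93 ± 0.28, 0.0135) and Pbx3 (0.85 ± 0.29, 0.0249). Of the 19 Polycomb and Trithorax genes 6 were lower and 1 higher in each comparison, together 7 of 19, beside 32.2% and 30.9% of all genes in either direction. Cbx7, a reader of the Polycomb mark, was lower by -0.75 ± 0.13 in AOM control (edgeR adjusted p = 8.07e-05) and by -0.91 ± 0.15 in the third set (7.33e-05). Eed, a core subunit of Polycomb complex PRC2, was lower by -0.48 ± 0.10 (edgeR adjusted p = 0.000882) and -0.47 ± 0.12 (0.00372).

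In the retinoic acid list 4 of 10 tested genes were higher in AOM control, where 17.1% of all genes were, among them the retinol dehydrogenase Rdh10 (0.75 ± 0.20, edgeR adjusted p = 0.00546). In control libraries of the third set 1 of 10 was higher and 1 lower: Aldh1a2, which makes retinoic acid, was higher (1.86 ± 0.45, edgeR adjusted p = 0.00285) and its relative Aldh1a3 lower (-1.58 ± 0.51, 0.0191). Cdx2, the ParaHox factor of intestinal identity, had its lowest values in the libraries with the most Hoxd13, at 8.21 CPM in Apc B_F_3 and 18.85 CPM in AOM C_M_3. It was at 217 and 183 CPM in Apc C_F_1 and C_M_3. Cdx1, its relative, ranged from 150.2 to 336 CPM over the Apc set.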

How the data were processed

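RNA was measured in 38 libraries of mouse intestinal tract. Per the labels, Trizol RNA was enriched for mRNA by oligo(dT) capture and sequenced on DNBSEQ, and the submitters' processing notes name HISAT2, featureCounts and GRCm39. The authors deposited raw counts per gene in 3 tables. Per the file headers, featureCounts 2.0.1 made 2 of them over exons of the Ensembl 104 annotation; the Apc table carries no command. Symbols matched 52083 of 55416 identifiers, and 0 columns were left unmapped.

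From the counts, edgeR 4.0.16 in R 4.3.3 (filterByExpr by group, TMM, quasi-likelihood F tests, two-sided, Benjamini-Hochberg over all genes, threshold 0.05) tested each set alone, with 1 spread estimate per fit, and a joint fit compared control libraries between sets. The SE of an edgeR difference was taken as its absolute log2 value over the square root of the F statistic. It is not a fitted standard error and is unreliable at low counts. Shown CPM are scaled over 37 libraries. AOM B_F_3 is left out. Correlations used 100000 resamples, or all orders where n was under 10. DESeq2 1.42.0, limma 3.58.1 (voom), RLE factors, no filter, a replicate block, a smooth muscle covariate and left-out libraries were alternatives. The fit was tested on simulated data. Of 42 replicate pairs, 0 were identical. All members enter the counts and sums; some genes are not reported here by name. The text names group 13 genes, members past the threshold, or the 3 smallest p where none passed. Members, lists and rules were chosen with earlier results of these data known, and the 25 CPM line, the regional pairs and the fit without 2 Apc libraries after the data were seen.

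Depth limits the Hoxc genes and the lowest Hoxb13 and Hoxd13 values most. PCR duplicates cannot be removed without molecular identifiers, so count limits cover counting error only.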

Additional observations from a re-analysis of the deposited data

Results flagged for a closer look

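In the third set, whose groups hold 4 libraries each, 10 values stood far from the other 3 of their group, by the gap to the nearest library over the range of the group (Dixon's limit). Chance gives such a value in about 1 of 20 groups. Genes that move together in 1 library, as in C_4, are not independent, so the 10 cannot be read against that rate. In control library C_4, Hoxb3 was at 7.86 CPM (others 2.06 to 2.35), Hoxb4 at 17.1 (3.94 to 4.45), Hoxb6 at 97.0 (8.13 to 10.4), Hoxb8 at 27.0 (2.66 to 2.87), Hoxb9 at 109 (54.7 to 59.1) and Hoxd4 at 3.69 (0.431 to 0.502), all the highest. In black rice library B_1, Hoxa3 was lowest at 10.9 CPM (15.5 to 15.6) and Hoxa9 lowest at 56.4 CPM (90.2 to 97.3). In black rice library B_3, Hoxc10 was lowest at 0.131 CPM (0.491 to 0.522) and Hoxd13 highest at 0.261 CPM (0.153 to 0.162). Over all members, 68 such groups were examined. Groups of 3 were not examined in this way.

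AOM B_F_3, used in no comparison, had 166000 CPM (rounded) of Alb against 0.263 to 42.2 CPM in the control libraries.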

How the results depend on the processing

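The count of 0 called members held in the comparisons within a set under RLE factors, no filter, limma-voom, the covariate and every left-out library (0 to 0 in each), but DESeq2 called 4 for Apc F minus M. The replicate numbers do not pair the libraries (mean correlation of same numbers -0.029, 0.086 and -0.213 in the Apc and AOM sets and the third set, with 3 of 18, 5 of 11 and 2 of 8 libraries closest to their own number), so the replicate block stands only here: it called 1 member (Hoxa6) for the AOM interaction, 1 for AOM control minus Apc control, and 0 in the other comparisons within a set. For AOM control minus Apc control, limma-voom, the covariate and all AOM libraries each gave 1 called member, and leaving out 1 library gave 1 to 4. For control libraries of the third set minus Apc control, limma-voom gave 12, the covariate 0, and leaving out 1 library gave 3 (without C_2 of the third set) to 8 (without C_4); Hoxd10 lost its call under RLE factors (-2.58, adjusted p = 0.0513). With Apc C_F_1 and C_M_3 left out, chosen after seeing the data, these counts were 2 and 6. Within the Apc set 0 were called in each comparison. The members behind the counts changed. In AOM control, Hoxa11 lost its call (edgeR adjusted p = 0.0966) and Hoxc9 gained one (0.0471). In control libraries of the third set, Hoxa2 (0.0609) and Hoxd10 (0.125) lost theirs. Hoxb2 (0.0323) and Hoxb13 (0.0121) were called there instead.

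With group means removed, correlations with Hoxb13 were 0.925 for Hoxa13 in the Apc set (adjusted p = 0.0878) and 0.916 in the AOM set (0.112), and in the AOM set -0.509 for Hoxb6 (0.0903), -0.623 for Hoxb4 (0.0878) and -0.599 for Epcam (0.253). With AOM B_F_3 included they were -0.311, -0.651 and 0.112 for Hoxb6, Hoxb4 and Epcam. Once group means were removed, values were shuffled within groups only, so those permutation p-values are not comparable with the main ones. The cause of these changes was not tested.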

Other observations

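Genes named here were chosen after their values were seen. Some AOM libraries carried transcripts of other regions that did not follow the Hox genes. Onecut2, a factor of liver and proximal small intestine, stood at 53.3 CPM in C_M_3, 41.3 in B_F_1, 29.0 in C_F_1 and 16.3 in C_F_2, at 0.111 to 2.97 CPM in the other 7 AOM libraries, and at 0.461 CPM or less in both other sets. Defa24, a Paneth cell defensin, stood at 48.7 CPM in C_F_2, 27.4 in C_F_1, 25.02 in C_M_3 and 5.46 in B_F_1. Krt14, a keratin of squamous epithelium, stood at 63.7 CPM in B_F_1 and at 9.11, 5.41 and 9.1 CPM in C_F_1, C_F_2 and C_M_3. Hoxb6 was low in 3 of these 4 libraries and at 60.0 CPM in C_F_2.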
